A study of Mus musculus with 22 samples.

Results

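Mitochondrial ribosomal protein genes encode the proteins of the ribosome that works inside mitochondria. That ribosome translates the few messages of mitochondrial DNA, all of them for subunits of the respiratory chain and ATP synthase. Its proteins are themselves nuclear-encoded, made in the cytosol and imported, with symbols starting Mrpl for the large subunit and Mrps for the small one. The genes were chosen by symbol alone, as the protein-coding genes named Mrpl or Mrps followed by a number. This gave 78 of 21631 protein-coding genes on the autosomes and the X chromosome, 49 Mrpl and 29 Mrps. Mrpl58, a release factor built into the large subunit, and Mrps36, now mostly assigned to the oxoglutarate dehydrogenase complex, were kept because the symbol decides. No binding value entered this rule, though earlier results of these data were known when the genes were chosen.

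Binding sites of CREB1 and C/EBP beta were mapped by chromatin immunoprecipitation and sequencing in mpkCCD clone 11, an established mouse line of cortical collecting duct cells at passages 6 to 12. Confluent cells were kept for 24 h without serum and hormones and then given 0.1 nM dDAVP, a vasopressin analog selective for the V2 receptor, or vehicle for 30 min. The groups were 4 CREB1 samples after dDAVP, 4 CREB1 samples after vehicle, 2 C/EBP beta samples after dDAVP and 2 C/EBP beta samples after vehicle, with 10 inputs without antibody, of which 2 are named for both antibodies. CREB1 is the cAMP-responsive activator phosphorylated by protein kinase A, which binds the cAMP response element (CRE). C/EBP beta is a leucine zipper factor of stress and differentiation. Members of the mitochondrial ribosome are housekeeping genes in tubule cells, which depend on oxidative ATP supply for ion transport. Their promoters are best known for NRF1, ETS-family and YY1 sites.

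Each group was deposited as 1 peak list, so every value below is a single value with no replicate error. The lists held 406 CREB1 peaks after dDAVP, 785 CREB1 peaks after vehicle, 2401 C/EBP beta peaks after dDAVP and 209 C/EBP beta peaks after vehicle. The read depth behind them is unknown. A gene counted as near a peak when the peak centre lay within 5000 bp of either end of the gene. Where a list has no peak at a gene, none was called, and weaker binding may still have been present.

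CREB1 peaks were near 5 of the 78 genes after dDAVP (6.41%, 95% Wilson interval 2.77 to 14.1) and near 8 of 78 after vehicle (10.3%, 5.29 to 19.0). Among all protein-coding genes the shares were 2.67% after dDAVP and 5.05% after vehicle. Both CREB1 intervals start just above the share of all genes. The intervals cover the counting of genes alone, and no test was made, since genes are not replicates. C/EBP beta peaks were near 3 of 78 genes after dDAVP (3.85%, 1.32 to 10.7), against 5.01% of all genes. After vehicle they were near 0 of 78, which allows a share of up to 3.85%, against 0.513% of all genes. The C/EBP beta shares lay under those of all genes, which fall inside the range the counts allow.

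**Figure D1:**
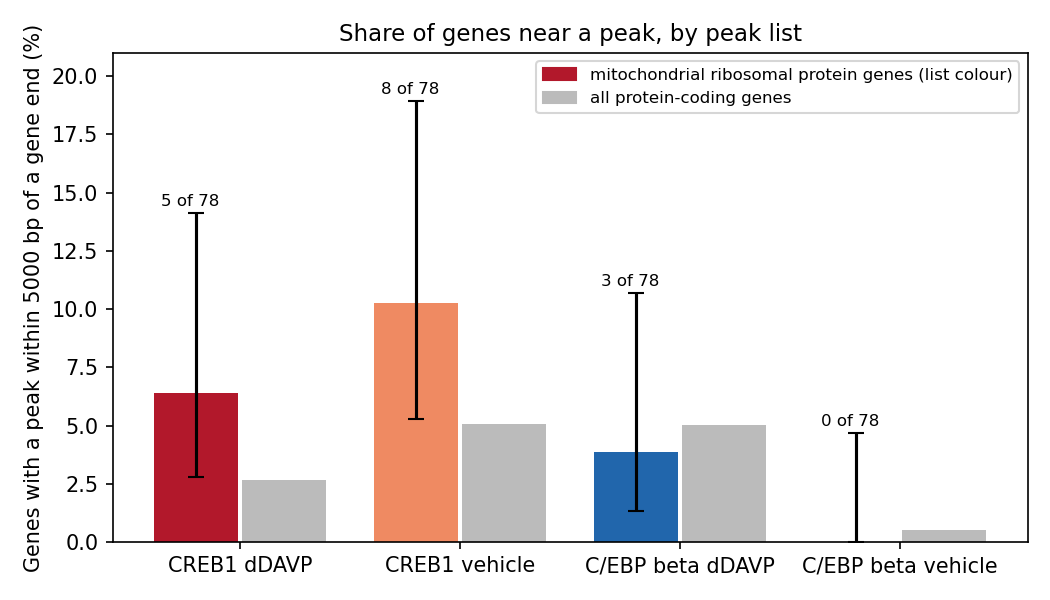
Share of genes with a peak centre within 5000 bp of a gene end (y axis, percent) in each of the 4 peak lists (x axis); coloured bars are the 78 mitochondrial ribosomal protein genes with 95% Wilson intervals, grey bars all 21631 protein-coding genes. The coloured bars stand above the grey ones in the CREB1 lists, with 5 and 8 genes, and below them in the C/EBP beta lists, with 3 and 0 genes.

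In all, 10 of the 78 genes were near a peak of any list (12.8%, against 9.39% of all genes) and 68 were near none. The 10 were Mrpl2, Mrpl4, Mrpl47, Mrpl48, Mrpl49, Mrpl52, Mrpl54, Mrpl55, Mrps5 and Mrps17. By subunit, CREB1 peaks were near 4 of 49 Mrpl and 1 of 29 Mrps genes after dDAVP, and near 6 of 49 Mrpl and 2 of 29 Mrps genes after vehicle. The 3 genes near a C/EBP beta peak were all Mrpl genes. A difference between the subunits was not tested. Within 1000 bp of a gene end, CREB1 peaks stood at 4 of 78 genes after dDAVP (5.13%, interval 2.01 to 12.5, against 2.11% of all genes). After vehicle they stood at 6 of 78 (7.69%, interval 3.57 to 15.8, against 3.94%). At 1000 bp both CREB1 intervals include the share of all genes. C/EBP beta peaks stood within 1000 bp of 1 of 78 genes after dDAVP (1.28%, against 2.51%) and of 0 after vehicle (against 0.254%).

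Most CREB1 sites at gene starts came with recognizable CRE letters, among the members as among all genes. The CRE is TGACGTCA, and its core is TGACG on either strand. RefSeq promoter windows of the same assembly (GRCm38.p6, which is mm10), from 250 bases before to 50 after a start, matched 69 of the 78 genes. A CREB1 peak of either treatment overlapped the window of 6 of these 69, against 711 of 17274 among all genes. The core stood in 614 of those 711 and in 5 of the 6: Mrpl2, Mrpl47, Mrpl49, Mrpl55 and Mrps17. Mrpl48 did not hold it. The core nearest to each vehicle peak centre is shown here, because it is the letters a CREB1 peak at these starts is read against. Each is printed 5′ to 3′ on the strand that reads TGACG, in capitals, with 8 bases on each side.
Mrpl49: cgctgcagTGACGtcacacgc
Mrpl47: gacaaaagTGACGacattgta
Mrpl55: cgcggtgaTGACGccacggag
Mrpl2: ctctgggaTGACGttccggtc
Mrps17: cagcgtgaTGACGctcacggt
These lie in mm10 at chr19:6057894-6057914 (plus strand), chr3:32736919-32736939 (minus), chr11:59202480-59202500 (minus), chr17:46646225-46646245 (minus) and chr5:129715492-129715512 (minus), in the order printed. Mrpl49 alone carried the full CRE, with 8 of 8 letters. Mrpl47 matched 7 of 8, with T6A, and Mrpl55 matched 7 of 8, with T6C, counting from 1 at the 5′ end of the CRE. Mrpl2 matched 6 of 8 and Mrps17 matched 5 of 8, so beyond the core these differed from the palindrome.

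All of these cores lay inside their peak. After dDAVP the core nearest to the centre was 4 bp away at Mrpl49, 7 bp at Mrpl2, 7 bp at Mrps17 and 71 bp at Mrpl47. After vehicle it was 6 bp away at Mrpl49, 6 bp at Mrpl2, 9 bp at Mrps17, 42 bp at Mrpl47 and 43 bp at Mrpl55. At Mrpl49, Mrpl2 and Mrps17 this nearest core thus sat nearly at the centre in both lists. The other cores of Mrpl2 lay 26 to 169 bp from the dDAVP centre and 39 to 182 bp from the vehicle centre. Distances of the core from the centre over all genes are not given here. Relative to the RefSeq start, counted as base 0, the cores spanned -151 to -147 at Mrpl49, -176 to -172 at Mrpl47, 2 to 6 at Mrpl55, -4 to 0 at Mrpl2 (from the RefSeq start used for its promoter, which is not its sole start) and 3 to 7 at Mrps17.

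**Figure D2:**
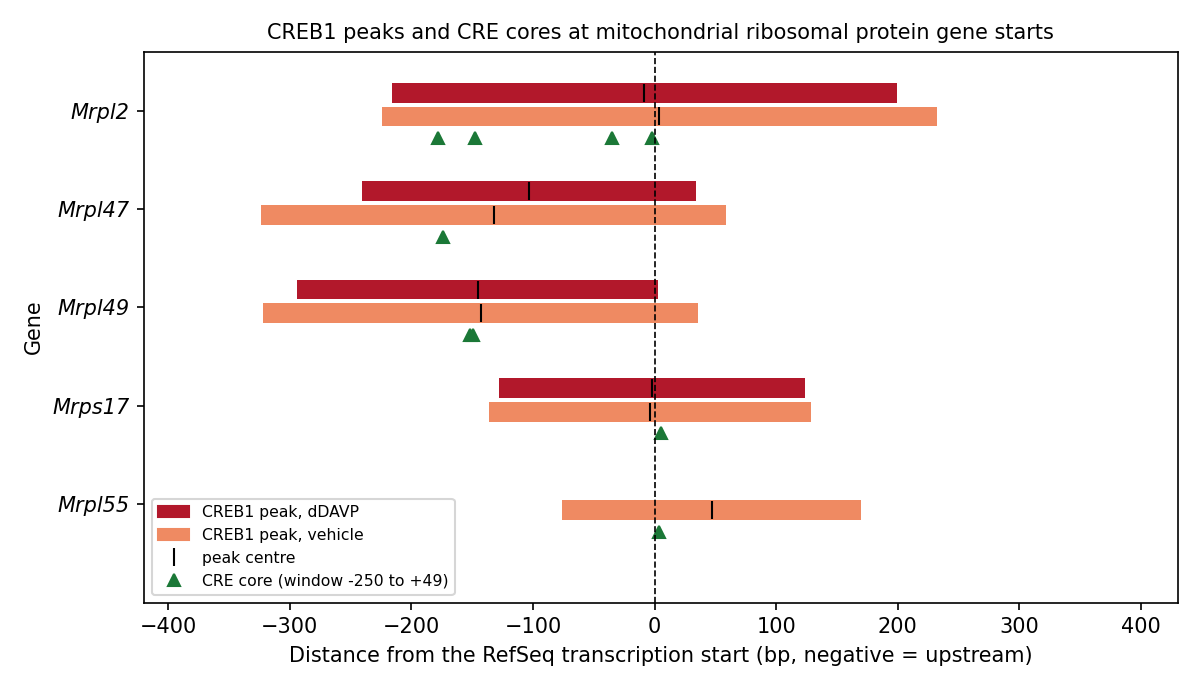
CREB1 peaks after dDAVP (red) and vehicle (orange) around the start of 5 mitochondrial ribosomal protein genes, drawn to scale (x axis: bp from the RefSeq start, negative upstream), with the peak centre as a black tick and CRE cores as green triangles. The peaks cross the start in all 5, and at Mrps17 the core lies 7 to 9 bp from the centre in either treatment; Mrpl55 has a peak after vehicle alone.

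The promoters are printed from 200 bases before to 20 bases from the start, on the strand of the gene, with every core in capitals (TGACG, or CGTCA where it is on the opposite strand). Sequences are RefSeq's.
Mrpl49, chr19:6057736-6057955, minus strand: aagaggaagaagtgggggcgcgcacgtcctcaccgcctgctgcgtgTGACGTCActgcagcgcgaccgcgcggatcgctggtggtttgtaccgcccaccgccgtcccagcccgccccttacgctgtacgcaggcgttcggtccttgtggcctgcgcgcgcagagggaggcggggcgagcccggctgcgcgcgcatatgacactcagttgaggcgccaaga
Mrpl47, chr3:32736736-32736955, minus strand: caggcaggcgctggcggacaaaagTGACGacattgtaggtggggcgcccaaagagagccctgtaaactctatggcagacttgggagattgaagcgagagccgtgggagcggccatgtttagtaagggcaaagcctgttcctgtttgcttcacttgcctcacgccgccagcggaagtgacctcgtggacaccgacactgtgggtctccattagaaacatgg
Mrpl55, chr11:59202286-59202505, plus strand: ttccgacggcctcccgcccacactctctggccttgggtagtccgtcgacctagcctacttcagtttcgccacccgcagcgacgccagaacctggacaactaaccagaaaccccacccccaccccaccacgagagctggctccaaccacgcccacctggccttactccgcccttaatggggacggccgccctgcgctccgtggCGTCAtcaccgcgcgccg
Mrpl2, chr17:46646037-46646256, plus strand: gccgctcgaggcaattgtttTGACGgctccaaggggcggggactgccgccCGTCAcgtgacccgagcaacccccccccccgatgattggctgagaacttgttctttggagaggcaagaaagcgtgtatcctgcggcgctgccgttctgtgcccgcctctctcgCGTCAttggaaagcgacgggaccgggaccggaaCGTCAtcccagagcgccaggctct
Mrps17, chr5:129715297-129715516, plus strand: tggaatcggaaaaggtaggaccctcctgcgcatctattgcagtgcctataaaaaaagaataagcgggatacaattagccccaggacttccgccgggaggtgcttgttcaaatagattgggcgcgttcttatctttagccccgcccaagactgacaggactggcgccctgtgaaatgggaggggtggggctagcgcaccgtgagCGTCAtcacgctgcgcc
Mrpl2 held 4 cores in this stretch and Mrpl47, Mrpl55 and Mrps17 held 1 each. At Mrpl49 the 2 cores overlap, as they form the full CRE.

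Against other promoters, the core was common. It stood in 42.0% of the member promoters (29 of 69) and in 26.5% of those of all protein-coding genes (4582 of 17274). Of the promoters with a CREB1 peak it stood in 5 of 6 among the members and in 86.4% among all genes (614 of 711). Among the members without a CREB1 peak on the window, 24 of 63 held it all the same. The full CRE stood in 2 of 69 member promoters, Mrpl49 and Mrpl16, and in 2.58% of all promoters. The full CRE of Mrpl16 spans -49 to -42 from the start, and Mrpl16 was near no peak. Of the promoters with a CREB1 peak, the full CRE stood in 1 of 6 among the members and in 24.3% among all genes (173 of 711). Among all genes 445 promoters held the full CRE, so most of these had no called CREB1 peak on the window either. Most member promoters with a core thus had no called CREB1 peak. The same held for all genes, where 614 of the 4582 promoters with a core had one on the window.

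Other motifs were counted on both strands in the same windows. The ETS motif CCGGAAGT stood in 12 of 69 member promoters (17.4%), against 5.76% of all promoters. The YY1 motif AAGATGGC also stood in 12 of 69 (17.4%), against 3.59%. The NRF1 motif GCGCA followed directly by TGCGC stood in 3 of 69 (4.35%; Mrpl9, Mrpl32 and Mrpl39), against 1.49%. The CCAAT box, read as CCAAT, stood in 27 of 69 (39.1%), against 42.7%. Among the 6 members with a CREB1 peak on the window, counting only windows under the peak, the YY1 motif stood in 1, Mrpl49, against 7.17% of all 711 windows with a CREB1 peak. CCAAT stood in 2 of the 6, Mrpl2 and Mrps17, against 48.7%. The ETS and NRF1 motifs stood in 0 of the 6, against 14.8% and 1.13%. The C/EBP motif TTGCGCAA and the C/EBP-ATF composite TGATGCAA were in 0 of 69 member promoters, against 0.249% and 0.996% of all. TTGCACAA, another C/EBP site, was in 1 of 69, Mrps22, against 1.12%. The CRE core is part of the full CRE, and the other motifs do not contain each other.

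CREB1 sites found in both treatments stood at 5 genes, which are described first. Mrps17 encodes the counterpart of a bacterial small subunit protein. Its peak spanned chr5:129715369-129715621 after dDAVP, with a centre 45 bp inside the lower gene end, and chr5:129715361-129715626 after vehicle, 43 bp inside. No other protein-coding gene had an end within 5000 bp of that centre.

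Mrpl2, the counterpart of a bacterial large subunit protein near the catalytic centre, had the widest of these peaks. It was 416 bp wide after dDAVP, rank 7 of 406 by width, and 457 bp wide after vehicle, rank 41 of 785. The peaks spanned chr17:46646021-46646436 after dDAVP and chr17:46646013-46646469 after vehicle. Their centres lay 56 bp and 69 bp inside the gene. An end of the neighbour Klc4, a kinesin light chain gene, was closer, at 39 bp after dDAVP and 52 bp after vehicle, and Cul7, a cullin gene, was also in range. The peak cannot be assigned to a single gene of these 3 from its position.

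Mrpl47, another protein with a bacterial counterpart, had a peak at chr3:32736721-32736996 after dDAVP and chr3:32736696-32737079 after vehicle. Its centres were 103 bp and 132 bp upstream of the start. The same peak was 199 bp after dDAVP and 170 bp after vehicle from an end of Ndufb5, which encodes a subunit of respiratory complex I. The site thus lies between a gene of the mitochondrial ribosome and a gene of the respiratory chain.

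Mrpl49 encodes a large subunit protein without a bacterial counterpart. Its CREB1 peak spanned chr19:6057752-6058049 after dDAVP and chr19:6057719-6058077 after vehicle, 145 bp and 143 bp upstream of the start. Fau, which encodes a cytosolic small subunit ribosomal protein fused to a ubiquitin-like protein, had an end closer to it, at 47 bp after dDAVP and 49 bp after vehicle. Znhit2, Syvn1 and Tm7sf2 also had an end within 5000 bp. Mrpl49 was the only member near peaks of both factors (1 of 78, 1.28%, against 153 of 21631 genes, 0.707%). Its C/EBP beta peak after dDAVP spanned chr19:6058637-6058844, 985 bp upstream of the start. The centre was 840 bp from that of the CREB1 peak, and 587 bp without a peak lay between them.

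Mrpl4, whose bacterial counterpart lines the exit tunnel of the ribosome, had a peak within the gene. It spanned chr9:21002721-21003004 after dDAVP and chr9:21002675-21003042 after vehicle, with centres 1610 bp and 1606 bp inside the lower gene end. No other gene had an end in range. Its promoter was not matched, so distance from a start and letters are not given.

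At these 5 genes the dDAVP peak lay wholly inside the vehicle peak and was narrower in each. The centres moved by 2 to 29 bp between treatments. The widths after dDAVP were 253 bp at Mrps17, 276 bp at Mrpl47, 284 bp at Mrpl4, 298 bp at Mrpl49 and 416 bp at Mrpl2. After vehicle they were 266 bp at Mrps17, 384 bp at Mrpl47, 368 bp at Mrpl4, 359 bp at Mrpl49 and 457 bp at Mrpl2. The same held for the whole list, where 392 of 398 shared dDAVP peaks were narrower than the vehicle peak and 349 were wholly inside it. All 5 dDAVP widths were above the median of their list, 250.5 bp.

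CREB1 sites in the vehicle list alone stood at 3 genes, Mrpl48, Mrpl55 and Mrps5, which is 3.85% of the members, against 2.42% of all genes. The dDAVP list alone had a peak near 0 members and near 9 of 21631 genes, since 398 of its 406 peaks were shared with the vehicle list. Mrpl55, a large subunit protein specific to mitochondria, had a pair of vehicle peaks. The first spanned chr11:59202410-59202656 with a centre 47 bp after the start and no other gene in range. The second, at chr11:59208234-59208453, lay 2205 bp past the other gene end and 18 bp from an end of 2310033P09Rik, with Arf1, a small GTPase gene, also in range. The first is the peak with the core shown above.

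Mrpl48, another large subunit protein specific to mitochondria, had a vehicle peak at chr7:100607403-100607584, 808 bp inside the gene and 129 bp after a RefSeq start. It was 182 bp wide, rank 757 of 785, and its centre was 82 bp from an end of Rab6a, a GTPase gene of Golgi traffic. Mrps5, the counterpart of a bacterial small subunit protein, had a vehicle peak at chr2:127584641-127584889, 2661 bp upstream of the start. An end of the zinc finger gene Zfp661 was closer, at 2329 bp. The core in the Mrps5 promoter, at -97 to -93, lay outside that peak.

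The 4 vehicle-only peaks were 182 to 249 bp wide, all below the list median of 290 bp. Of the 5 vehicle peaks found in both treatments, 4 were above it and Mrps17 was below, at 266 bp. Vehicle-only and shared peaks were not compared in width over the whole vehicle list, so whether this is particular to the members is unknown. Of the 8 members near a vehicle CREB1 peak, 5 were near one after dDAVP too (62.5%), against 568 of 1092 genes (52.0%) overall. The dDAVP list is the shorter one, with 406 peaks against 785. Cut to its 406 widest peaks, the vehicle list was near 4 members, against 5 after dDAVP. Whether dDAVP changed binding could not be tested with 1 list per group.

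**Figure D3:**
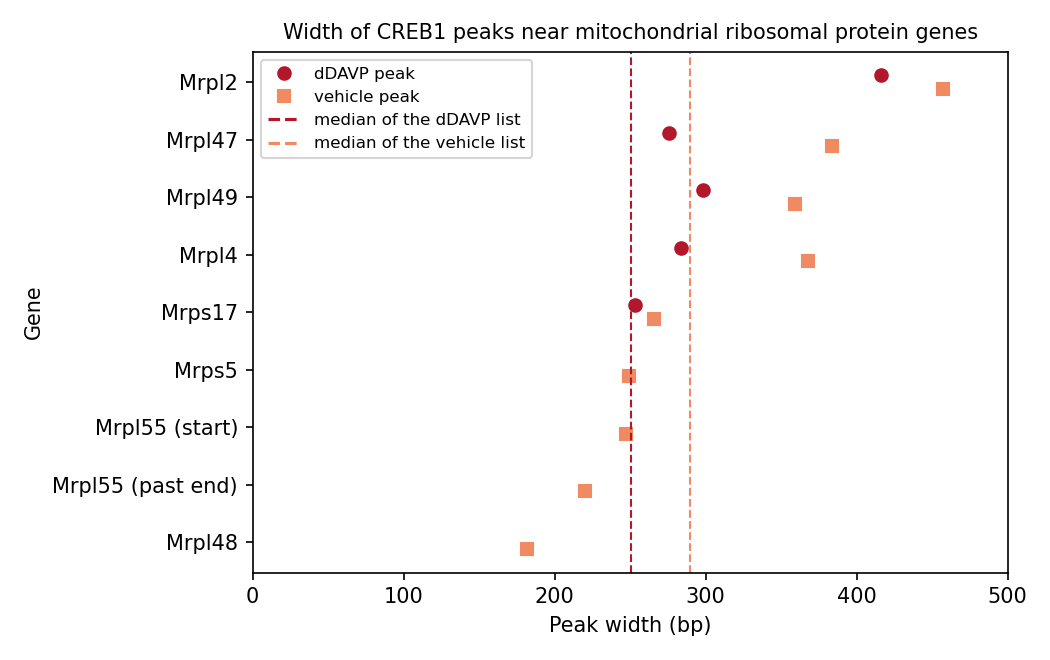
Width of each CREB1 peak near a mitochondrial ribosomal protein gene (x axis, bp) by gene (y axis), after dDAVP (red circles) and vehicle (orange squares), with the list medians of 250.5 bp and 290 bp as dashed lines. The dDAVP peaks are narrower at all 5 genes that have both, and the 4 peaks of the vehicle list alone, at 182 to 249 bp, lie left of both medians.

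C/EBP beta sites stood near 3 members, all after dDAVP and all in that list alone. Of the whole dDAVP list, 8.70% of peaks (209 of 2401) were shared with the vehicle list, so most of its peaks were unshared anywhere in the genome. The scores are the authors' own and have no stated scale. Mrpl54, a large subunit protein specific to mitochondria, had a peak at chr10:81267990-81268348, 1243 bp past the higher gene end, with a score of 533, rank 370 of 2401. An end of Apba3, an adaptor protein gene, was 1234 bp away. Mrpl52, also specific to mitochondria, had a peak at chr14:54434249-54434552 with a score of 382, rank 565. It was 4650 bp past the gene's far end and 2802 bp from an end of Mmp14, a membrane-bound metalloproteinase gene. The Mrpl49 peak described above scored 120, rank 1773, below the list median of 197. Each of the 3 peaks was closer to another gene than to the member, so none had a mitochondrial ribosomal protein gene as its nearest gene.

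Just beyond the 5000 bp limit stood 3 further members. CREB1 peaks of both treatments lay 6677 bp (dDAVP) and 6684 bp (vehicle) from Mrpl24, and an end of Isg20l2, an exonuclease gene, was 187 bp and 180 bp away. CREB1 peaks lay 8616 bp (dDAVP) and 8663 bp (vehicle) from Mrps34, with an end of Nubp2, an iron-sulfur cluster assembly gene, 154 bp and 107 bp away. A C/EBP beta peak after dDAVP lay inside Mrps28, 9979 bp from its higher end, with a score of 414.

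The members sit in gene-dense surroundings. An end of another protein-coding gene was within 1000 bp for 44 of the 78 (56.4%), against 25.1% of all protein-coding genes. Among the genes with a CREB1 peak within 1000 bp, the share was 4 of 6 for the members and 53.4% for all genes (459 of 860). Another gene was in range of 3 of 5 dDAVP and 6 of 9 vehicle CREB1 peaks near members. The same share over all CREB1 peaks is not given here, so this count is no trait of the members. Mrpl46 and Mrps11, which lie 42 bp apart on chromosome 7, were near no peak. The part of this density in the CREB1 share was not tested.

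The median distance to the nearest peak was shorter for the members than for all genes in each of the 4 lists, but the shares within a given distance did not all lie above those of all genes. The median distance to the nearest CREB1 peak was 774682 bp after dDAVP and 489625 bp after vehicle for members, against 1744167 bp and 809665 bp for all genes. For C/EBP beta it was 161626 bp after dDAVP and 3538548 bp after vehicle for members, against 273018 bp and 4165003 bp. Within 100000 bp of a C/EBP beta dDAVP peak were 29.5% of members and 29.3% of all genes, and within 10000 bp were 5.13% of members and 7.02% of all genes. Within 30000 bp of a C/EBP beta vehicle peak were 0 of 78 members and 1.42% of all genes. Within 50000 bp of a CREB1 vehicle peak were 10 of 78 members, against 12.5% of all genes, so there the members were close to the background.

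**Figure D4:**
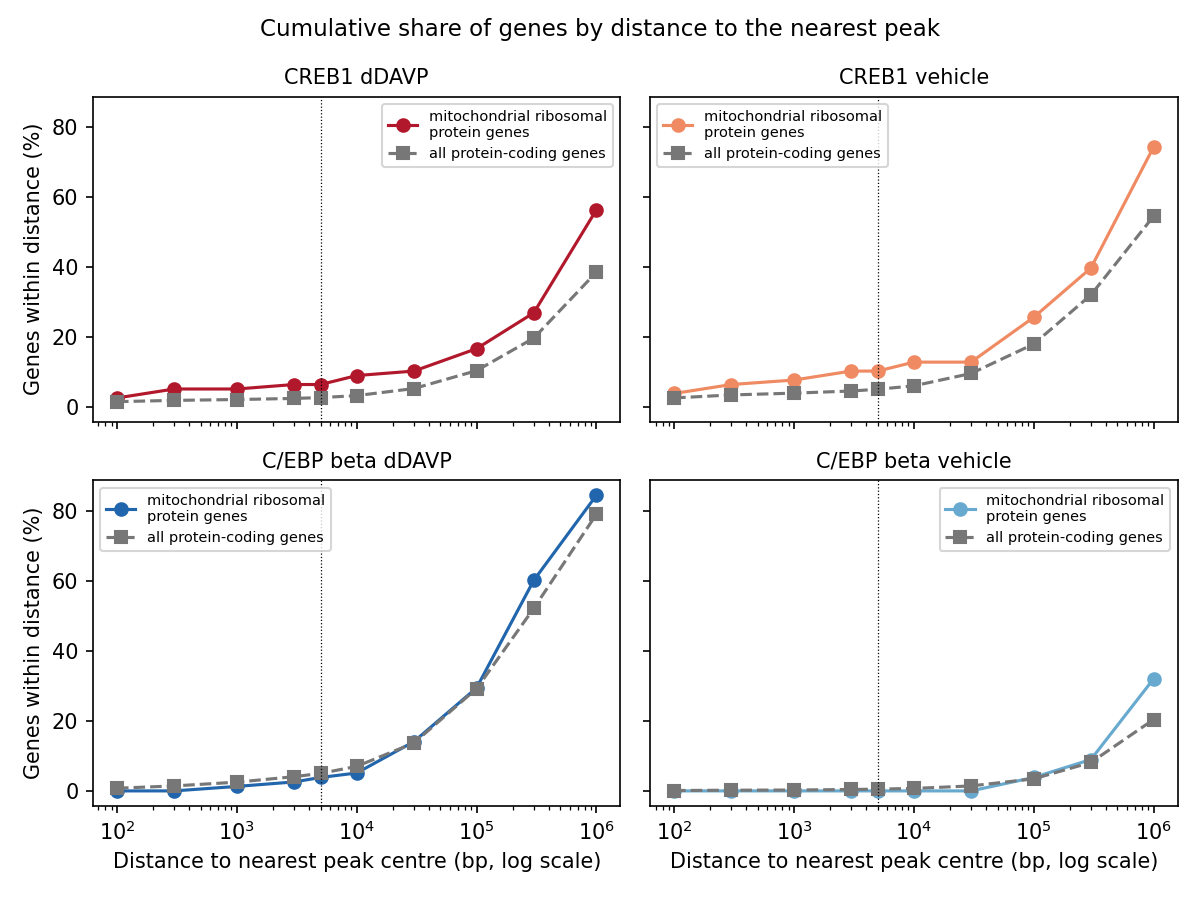
Cumulative share of genes (y axis, percent) by distance from a gene end to the nearest peak centre (x axis, bp, log scale), 1 panel per peak list; coloured lines are the 78 mitochondrial ribosomal protein genes, dashed grey lines all protein-coding genes, and the dotted line marks 5000 bp. At the 10 distances plotted, the members lie above all genes in both CREB1 panels, though between the plotted points they come close to them, with 10 of 78 members against 12.5% of all genes at 50000 bp after vehicle. In the C/EBP beta dDAVP panel the members lie below all genes up to 10000 bp. They lie close to all genes at 30000 bp (14.1% against 13.7%) and 100000 bp (29.5% against 29.3%), and above them at 300000 bp (60.3% against 52.2%).

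Other genes of mitochondrial translation were counted for comparison, from lists chosen with earlier results of these data known. Over 5 lists of the pathway and its regulators and 5 mitoribosomal proteins under other symbols, 105 genes were found. CREB1 peaks were near 11 of 105 after dDAVP (10.5%) and 21 of 105 after vehicle (20.0%), and C/EBP beta peaks near 10 (9.52%) after dDAVP and 3 (2.86%) after vehicle. Among all protein-coding genes the shares, in the same order, were 2.67%, 5.05%, 5.01% and 0.513%, and the counts of each list below are read beside these. The shares of the pathway lists were not tested against those of the members or of all genes.

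Of 30 assembly factors of the mitochondrial ribosome, CREB1 peaks were near 3 after dDAVP and 8 after vehicle. Mrm3, a methyltransferase of the large ribosomal RNA, Gtpbp10, a GTPase of large subunit assembly, and the helicase gene Ddx28 had a peak in both treatments, within 2 to 44 bp of a gene end. The vehicle list added Fastkd2, Malsu1 and Tfb1m, the last a methyltransferase of the small ribosomal RNA, 19 to 62 bp from an end, and Mpv17l2 and Spg7 at 4075 and 4546 bp. Nsun4 and Spg7 had a C/EBP beta peak in range after dDAVP.

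Of 17 translation factors, CREB1 peaks were near Mrrf, the ribosome recycling factor, and Guf1, a translational GTPase, after dDAVP. After vehicle they were near these and near Lrpprc, an RNA-binding protein, and Trmt10c, a subunit of mitochondrial RNase P (4 of 17). Taco1, a translational activator of cytochrome oxidase, had a C/EBP beta peak after dDAVP, 130 bp from an end.

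Among 22 genes that charge mitochondrial tRNA, Gatc, a subunit of the amidotransferase that completes glutaminyl-tRNA, had a CREB1 peak 80 bp from an end after dDAVP and 84 bp after vehicle. Gatb, another subunit of that enzyme, had a C/EBP beta peak 2595 bp from an end in either treatment. Gars, the glycyl-tRNA synthetase gene, which also serves the cytosol, had a C/EBP beta peak 28 bp from an end after dDAVP.

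Of 19 genes for transcription and replication of mitochondrial DNA, CREB1 peaks were near 3 after dDAVP and 4 after vehicle. Those were Supv3l1, an RNA helicase, and the close paralogs Mterf1a and Mterf1b, whose reads may not be told apart, in both, and Mgme1, a nuclease, after vehicle. Polg2 had a C/EBP beta peak after dDAVP. Of 12 regulators of mitochondrial genes, CREB1 peaks were near Yy1 and Pprc1, a PGC-1-related coactivator, after dDAVP, and near these and Esrra, an orphan nuclear receptor, after vehicle. C/EBP beta peaks were near Myc and Esrra after dDAVP, and near Myc after vehicle. Nrf1, Gabpa and Tfam had no peak in range in any list. Of the 5 mitoribosomal proteins under other symbols, Dap3, a small subunit protein, was near a C/EBP beta peak after dDAVP, 1291 bp from an end.

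**Figure D5:**
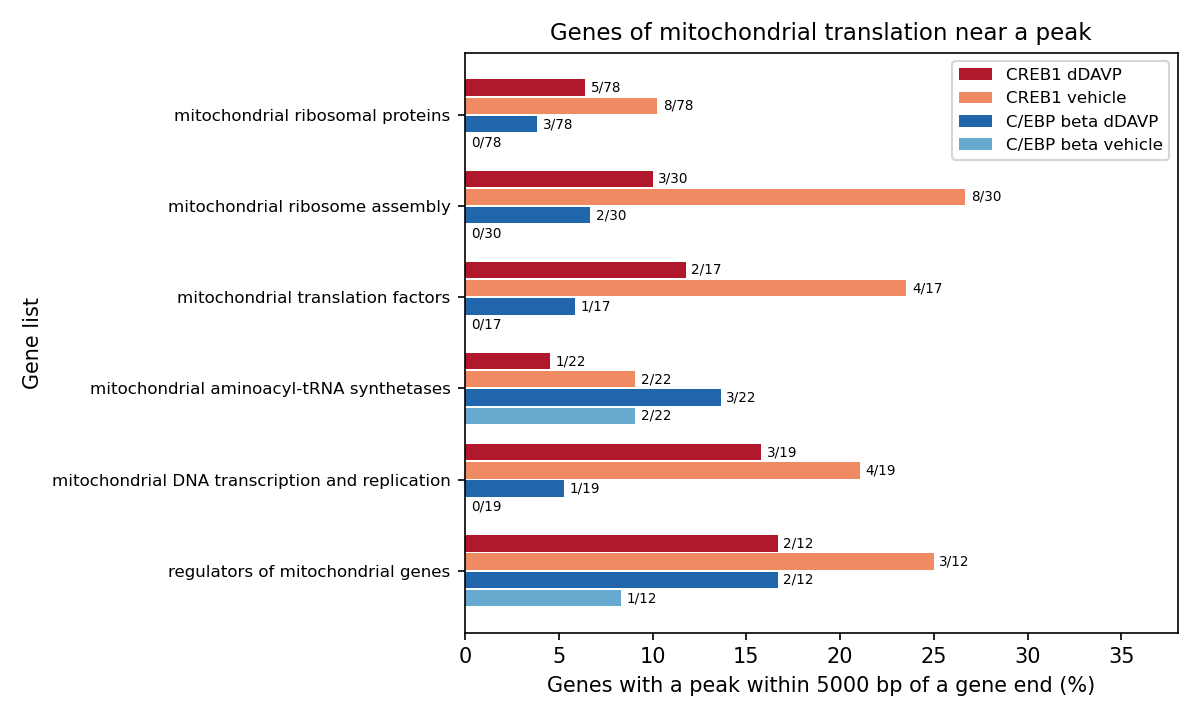
Share of genes with a peak centre within 5000 bp of a gene end (x axis, percent) for the mitochondrial ribosomal protein genes and 5 gene lists of mitochondrial gene expression (y axis), with a bar per peak list and the gene counts beside it. After vehicle, CREB1 peaks are near 8 of 30 assembly factors and 8 of 78 mitochondrial ribosomal protein genes, against 5.05% of all protein-coding genes (not drawn).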

How the data were processed

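Peak lists of 12 immunoprecipitated samples in 4 groups were analysed, 1 list per group. BWA, SAMtools, MACS2, bedtools and mm10 are named in the submitters' processing notes, without versions or roles, and how replicates were combined is not stated in the labels. For CREB1 the authors deposited peak positions. For C/EBP beta the authors deposited a score per peak as well, without a stated scale, and peak names that carry replicate 1 and the settings bandwidth 300, duplicates 1 and q 0.01. Whether each C/EBP beta list draws on 1 or on both samples of its group is not stated.

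Positions were turned to 1-based. Gene ends came from a RefSeq table of GRCm38.p6 and strand and letters from RefSeq promoter windows, with pandas 2.3.3 and scipy 1.17.1. The distance and overlap functions were tested on simulated peaks. The rule for the members used symbols and no binding value. Members, gene lists, motifs and alternatives were all chosen with earlier results of these data known. Every member with a peak within 5000 bp is named, as are those within 10000 bp and the genes with a peak in the other lists, except for a result that is not reported here. Sequences are shown for members with a CREB1 peak on the promoter window and a CRE core. No count test was possible, because reads and values per replicate were not used here. Intervals are 95% Wilson intervals, and a count of 0 allows 3 counts.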

Additional observations from a re-analysis of the deposited data

Results flagged for a closer look

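The number of mitochondrial ribosomal protein genes near a peak differed between treatments in opposite directions for the 2 factors, in lists of unequal length. For CREB1 it was -3 after dDAVP against vehicle (5 genes after dDAVP, 8 after vehicle), and for C/EBP beta it was 3 (3 genes after dDAVP, 0 after vehicle). The difference was not tested, since each group is 1 list. Over all protein-coding genes the same differences were -515 for CREB1 and 973 for C/EBP beta. Counts at equal list length follow, but these cuts could not test whether the directions hold. The 406 CREB1 dDAVP peaks were near 5 members and the 406 widest vehicle peaks near 4. This cut by width left out all 4 vehicle-only peaks near members, which rank 551 to 757 of 785. It also left out the shared Mrps17 peak, rank 479. The 209 C/EBP beta dDAVP peaks with the best scores were near 0 members, as were the 209 vehicle peaks.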

How the results depend on the processing

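Of 34 alternatives, 24 kept the count within 1.5 times and 10 moved it. With the nearest gene of each peak alone, CREB1 had 3 members after dDAVP (all genes 1.79%) and 4 after vehicle (3.43%), and C/EBP beta had 0 after dDAVP (3.89%). At 50000 bp CREB1 had 8 after dDAVP (all genes 6.97%), and C/EBP beta had 15 after dDAVP (18.9%) and 1 after vehicle (1.96%). For C/EBP beta after dDAVP the count was 1 at 1000 bp (all genes 2.51%), 1 with transcription starts alone (4.14%), and 0 with the 209 best scores (0.596%). With the 406 widest CREB1 vehicle peaks it was 4 (2.69%). By construction, the wider distance lets in more genes, and the other 5 rules named here let in fewer genes or peaks. The 5 CREB1 peaks shared between treatments were the same count at an overlap of 50%. Members without a promoter entry could not enter the count by starts. No paired analysis was possible because the deposited lists hold no values per replicate. Read depth is unknown and limits what a missing peak can show.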

Other observations

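The letters around the CRE cores of Mrps17 and Mrpl55 share a run of 10 bases, GTGATGACGC, which was noticed after the sequences were printed and is given as a description. It stood in 22 of 17274 promoters of protein-coding genes (0.127%), on either strand, and 14 of these 22 genes had a CREB1 peak on the window. Mrps17 and Mrpl55, from which the run was read, are counted in both numbers. Among all 17274 promoters 711 had a CREB1 peak on the window, and among the 4582 with the core 614 did. No other member promoter held the run of 10 bases. The shorter run GATGACG, which Mrpl2 shares with both, stood in 9 of 69 member promoters (13.0%), against 2.69% of all promoters and 23.8% of those with a CREB1 peak. The 9 were Mrpl2, Mrpl16, Mrpl36, Mrpl55, Mrps10, Mrps12, Mrps17, Mrps23 and Mrps36, of which 3 had a CREB1 peak on the window. Those 3 were Mrpl2, Mrpl55 and Mrps17, the genes from which this shorter run was read. Its member counts therefore include its own sources.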
